A study of Homo sapiens with 24 samples.

Results

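Tubulin mRNAs were followed in U251 cells, an established human glioblastoma line, that had been exposed to G-1, an agonist of the membrane estrogen receptor GPER. The genes were chosen by name: 4 alpha-tubulins (TUBA1A, TUBA1B, TUBA1C and TUBA4A) and 6 beta-tubulins (TUBB, TUBB2A, TUBB2B, TUBB3, TUBB4B and TUBB6). All probes whose RefSeq transcript belongs to 1 of these 10 genes were taken, which gave 16 of the 58118 probes with a value, for 10 of the 24817 genes with a symbol. Cells were deprived of steroid hormones for 24 h and then received DMSO (0.1% per the labels), G-1 at its IC50 or G-1 at 1 µM for 24 h or 72 h. The 6 groups were DMSO, IC50 and 1 µM at each duration, with 4 independent biological replicates each, and total RNA from each culture was hybridized to 1 of 24 single-colour microarrays. The study asked which genes respond to G-1, and how dose and duration change the response. The comparisons made here ask which tubulin isotypes moved with each dose and duration.

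Microtubules are polymers of alpha- and beta-tubulin dimers, and cells make many isotypes of both from separate genes. Cells also sense the pool of unpolymerized dimers. When free dimers rise, for example because a drug takes microtubules apart, tubulin mRNAs that are being translated are degraded, and when free dimers fall the mRNAs become more stable. In this loop, called tubulin autoregulation, the factor TTC5 recognises the start of the nascent tubulin chain on the ribosome and, through SCAPER, brings in the CCR4-NOT deadenylase, which shortens the mRNA's tail. Gamma-tubulin, which nucleates microtubules, is a relative outside the alpha/beta dimer.

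Levels are log2 signals relative to the 75th percentile of the same array, and a log2 difference of 1 is a 2-fold difference. Because probes bind with different strength, genes were not ranked by level. Where 1 gene was expressed relative to another on the same array, only the change between groups was read. All 16 tubulin probes were well above background on all 24 arrays and none was saturated. A gene with several probes is given by its brightest probe, and the others are described further on. Within a group, the SD of a tubulin gene over the 4 arrays was between 0.031 and 0.253, with a median of 0.098. A change was called at a Benjamini-Hochberg adjusted p under 0.05 from limma, fitted to all 24 arrays and adjusted over 22970 probes, and background shares refer to the 14235 tested genes with a symbol. All 8 glioma and astroglial markers examined were detected on all 24 arrays, and the 3 epithelial markers on none. The arrays lay on 3 slides of 8. All 8 arrays of G-1 1 µM were on the third slide and in a second scanning session, with 38.0 to 40.7% of spots above background against 41.1 to 44.5% on the other slides. Comparisons of 1 µM with DMSO or IC50 therefore cannot be told apart from slide and session, whereas comparisons of IC50 with DMSO, and of 1 µM at 72 h with 1 µM at 24 h, do not cross sessions.

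**Figure D1:**
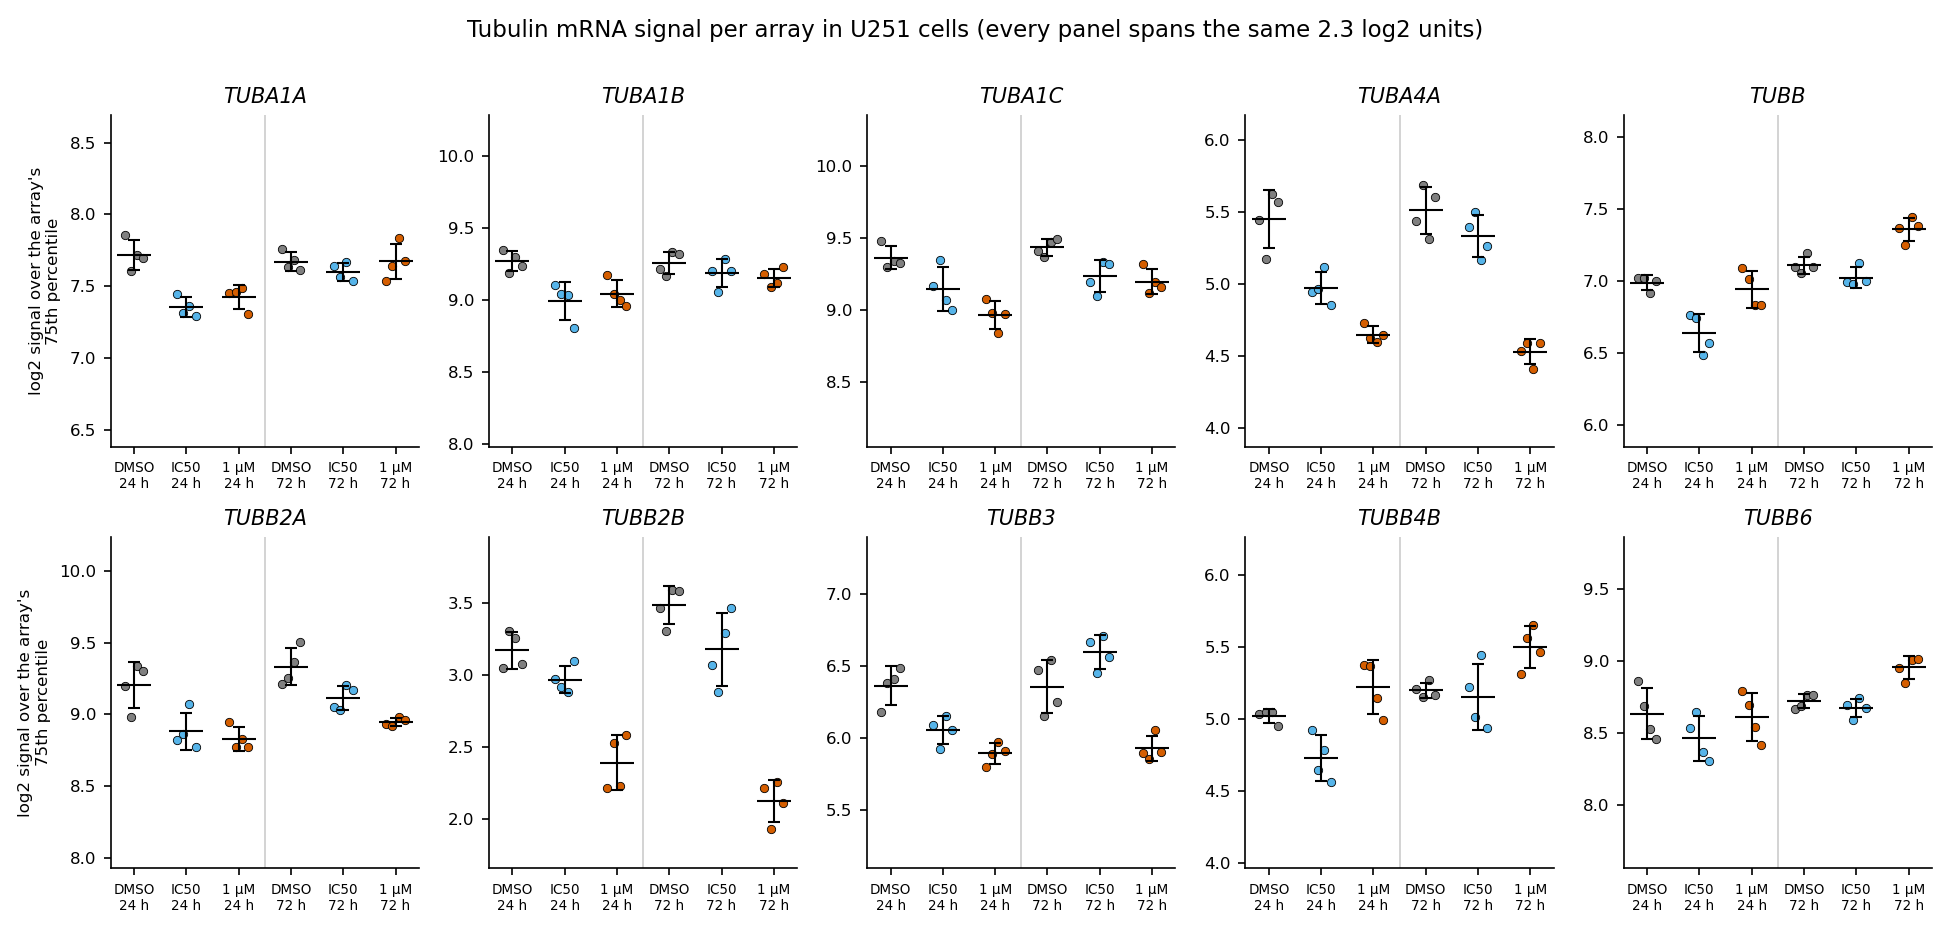
Log2 signal of each tubulin gene (brightest probe) relative to the 75th percentile of the array, y axis, in the 6 groups, x axis. Points from left to right in a group are replicates 1 to 4, the line is the mean and the bars are the SD (n = 4). TUBB2B and TUBA4A are lowest in the 1 µM groups, and the other 8 genes have their lowest mean in a G-1 group of 24 h.

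After 24 h at the IC50, all 10 tubulin genes had a lower mean than in DMSO, and TUBA1A, TUBA4A and TUBB fell past the threshold. The fall of these 3 genes was between 1.27-fold and 1.40-fold. They made up 3 of only 4 genes called lower in this comparison, which are 0.0281% of those tested. The fourth, KLF2, a transcription factor, was named after its values were seen and fell by 0.49 on the log2 scale. In either direction 0.246% of genes were called, and of the 31 called higher (0.218%) none was a tubulin gene. All 16 tubulin probes had a negative change, and the median change of the 10 genes was -0.30 against -0.01 over all genes.

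TUBA1A, an alpha-tubulin best known from developing neurons, had levels of 7.86, 7.61, 7.72 and 7.70 in the 4 DMSO arrays at 24 h and 7.45, 7.32, 7.36 and 7.29 in the 4 IC50 arrays. All 4 IC50 arrays lay below all 4 DMSO arrays, and the change was -0.36 (SE 0.07, limma adjusted p = 0.023). TUBA4A is an alpha-tubulin whose gene does not encode the C-terminal tyrosine that other alpha-tubulins carry. Its levels were 5.44, 5.17, 5.62 and 5.56 in DMSO and 4.94, 4.97, 5.12 and 4.85 at the IC50, again without overlap. The change was -0.48 (SE 0.10, limma adjusted p = 0.043), and its other probes gave -0.44 and -0.37, both past the threshold. TUBB, the beta-tubulin that most cell types use, read 7.02, 7.02, 6.92 and 7.00 in DMSO and 6.76, 6.74, 6.49 and 6.57 at the IC50. Its groups did not overlap either, with a change of -0.35 (SE 0.07, limma adjusted p = 0.048), while its other probes gave -0.24 and -0.43 and were not called. RNA of a whole culture was measured, so fewer cells that express a gene and less of its mRNA per cell cannot be told apart.

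For the other 7 genes the changes at the IC50 were between -0.17 for TUBB6 and -0.32 for TUBB2A, and none passed the adjusted threshold. At an unadjusted p under 0.05, 8 of the 10 genes were lower, against 4.64% of all tested genes in either direction. The IC50 arrays lay below all DMSO arrays for 6 genes, namely TUBA1A, TUBA1B, TUBA4A, TUBB, TUBB3 and TUBB4B, and the background share of genes separated downward was 1.18%. IC50 and DMSO arrays shared slides, and within slide 1 (2 IC50 arrays and 3 DMSO arrays) all 10 genes were lower, with a median of -0.31. Within slide 2 (2 IC50 arrays and 1 DMSO array) all 10 were lower as well, with a median of -0.27, and with the slide as a block the 3 calls held (adjusted p = 0.026, 0.0044 and 0.035 for TUBA1A, TUBA4A and TUBB).

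All 10 changes at the IC50 for 24 h kept their sign under every alternative that was run, but the 3 calls did not hold under all of them. With the 50th percentile as reference the changes of TUBA1A, TUBA4A and TUBB were -0.28, -0.40 and -0.26 and none was called, and none was called without the filter on dim probes or with the 8 arrays of the comparison alone. No call remained without DMSO 24 h replicate 1, 3 or 4 or without IC50 24 h replicate 2 or 4, TUBA4A alone remained without IC50 replicate 3, TUBA1A and TUBB without IC50 replicate 1, and TUBA1A and TUBA4A, joined by TUBB2A, without DMSO replicate 2, and the adjusted p-values of lost calls lay between 0.055 and 0.26.

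After 72 h at the IC50 the changes of the 10 tubulin genes against DMSO lay between -0.31 and 0.24. None was called by limma, where 0.906% of all genes were, and 4 had an unadjusted p under 0.05, 3 of them lower, beside 9.62% of all genes in either direction. The median change was -0.08 against -0.02 over all genes. TUBA1C and TUBB2A were separated downward from DMSO on every array (changes of -0.20 and -0.22), beside 4.90% of all genes. The other TUBA1C probe changed by -0.03 and overlapped DMSO. The largest change was -0.31 for TUBB2B, whose ranges overlapped. TUBB3, the beta-tubulin typical of neurons, stood at the other end with 6.67, 6.45, 6.71 and 6.57 at the IC50 against 6.48, 6.16, 6.55 and 6.25 in DMSO. The ranges overlapped, and the change of 0.24 (SE 0.09) was not called (limma adjusted p = 0.35). The interaction of the IC50 with duration was positive for 9 of the 10 genes and largest for TUBB3 at 0.55 (SE 0.12), but none was called (adjusted p = 0.23 for TUBB3), and only 2 of all tested genes, 0.0140%, were called. At an unadjusted p under 0.05 there were 4 tubulin genes, beside 4.23% of all genes.

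**Figure D2:**
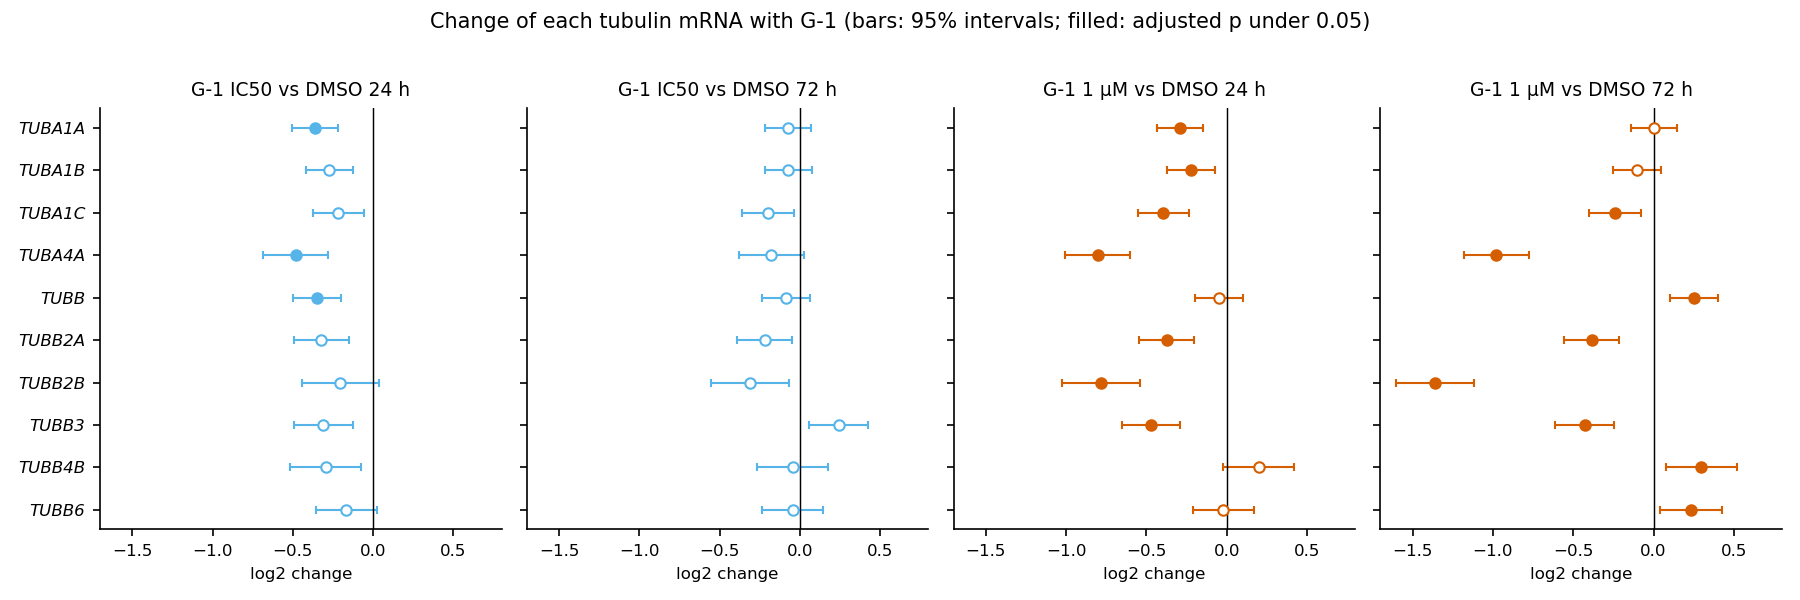
Log2 change of each tubulin gene against DMSO of the same duration, x axis, for both doses of G-1 and both durations. Bars are 95% intervals from limma and filled points have an adjusted p under 0.05. At the IC50 all 10 points at 24 h lie left of 0, and at 1 µM and 72 h the points spread from -1.36 for TUBB2B to 0.30 for TUBB4B.

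At 1 µM for 24 h, 7 tubulin genes were lower than in DMSO and none was called higher. The DMSO arrays were those already compared with the IC50, so the 2 sets of values are not independent. In this comparison 30.6% of all genes were called, 20.0% higher and 10.5% lower. The 7 were all 4 alpha-tubulins and the beta-tubulins TUBB2A, TUBB2B and TUBB3, and the same 7 were separated from DMSO on every array, where 10.8% of all genes were separated downward. The median change of the 10 genes was -0.33 against 0.04 over all genes.

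TUBA4A fell the most, with 4.73, 4.62, 4.59 and 4.64 at 1 µM against the DMSO values given above, a change of -0.80 (SE 0.10, limma adjusted p = 1.56e-05). TUBB2B, a beta-tubulin needed for neuronal migration, read 3.05, 3.30, 3.26 and 3.07 in DMSO and 2.22, 2.53, 2.23 and 2.58 at 1 µM. All 1 µM arrays were lower, and the change was -0.78 (SE 0.12, limma adjusted p = 1.02e-04). TUBB3 followed with 6.18, 6.38, 6.41 and 6.49 in DMSO and 5.80, 5.89, 5.97 and 5.91 at 1 µM. Its groups were separate, and it fell by 0.47 on the log2 scale (limma adjusted p = 6.67e-04).

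The remaining called genes fell less. TUBA1C changed by -0.39, TUBB2A by -0.37, TUBA1A by -0.29 and TUBA1B by -0.22. The other TUBA1C probe changed by -0.17 and was not called (limma adjusted p = 0.086). The call of TUBA1B, a broadly expressed alpha-tubulin, was lost without DMSO 24 h replicate 1 or 3 or 1 µM replicate 3 or 4 (adjusted p between 0.054 and 0.065) and with the arrays of the comparison alone (adjusted p = 0.059). TUBB at -0.05, TUBB6 at -0.02 and TUBB4B at 0.20 were not called, with 95% intervals of -0.20 to 0.10, -0.21 to 0.17 and -0.02 to 0.42. TUBB4B, a beta-tubulin of many tissues and of cilia, read 5.37, 5.37, 5.15 and 4.99 at 1 µM, across a wider range than the 4.95 to 5.05 of DMSO.

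At 1 µM for 72 h the isotypes moved apart. Of the 10 genes, 5 were called lower (TUBA1C, TUBA4A, TUBB2A, TUBB2B and TUBB3), 3 were called higher (TUBB, TUBB4B and TUBB6) and 2 were not called (TUBA1A and TUBA1B). With 66.1% of all genes called in this comparison, 31.0% lower and 35.2% higher, 8 of 10 is near the background share. The same 8 genes were separated from DMSO on every array, as were 58.7% of all genes. TUBB2B was the only one past 2-fold, a mark that 12.3% of all genes passed. The median change was -0.17 against 0.03 over all genes.

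TUBB2B read 3.46, 3.30, 3.59 and 3.58 in DMSO at 72 h and 2.21, 1.93, 2.25 and 2.11 at 1 µM. The highest treated array was more than 1 log2 unit below the lowest control, and the level was 2.57-fold lower (change -1.36, SE 0.12, limma adjusted p = 3.89e-09). TUBA4A read 5.44, 5.68, 5.31 and 5.60 in DMSO and 4.53, 4.59, 4.41 and 4.59 at 1 µM, which was 1.97-fold lower (change -0.98, SE 0.10, limma adjusted p = 3.21e-08). TUBB3 and TUBB2A fell by 0.43 and 0.38 on the log2 scale, close to their falls at 24 h.

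The genes that were higher moved by less. TUBB read 7.10, 7.06, 7.20 and 7.10 in DMSO and 7.37, 7.25, 7.44 and 7.38 at 1 µM, a change of 0.25 (SE 0.07, limma adjusted p = 0.0046). TUBB4B read 5.21, 5.16, 5.27 and 5.17 in DMSO and 5.31, 5.57, 5.65 and 5.47 at 1 µM, a change of 0.30 (SE 0.11, limma adjusted p = 0.019). Every treated array was above every control for both. TUBB6, a beta-tubulin with a divergent tail, read 8.67, 8.68, 8.76 and 8.76 in DMSO and 8.95, 8.84, 9.01 and 9.02 at 1 µM, also without overlap, with a change of 0.23 (SE 0.09, limma adjusted p = 0.031). TUBA1A, by contrast, had a mean of 7.67 in both groups, with a change of 0.00 (95% interval -0.14 to 0.14), and TUBA1B changed by -0.10 (-0.25 to 0.04). The sign of TUBA1A turned under quantile normalization (-0.02) and with the 50th percentile (-0.08), and that of TUBA1B with normexp background correction (0.07).

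The 3 higher calls depended on the scaling. With the 50th percentile as reference, TUBB, TUBB4B and TUBB6 changed by 0.17, 0.22 and 0.16 and none was called (adjusted p between 0.14 and 0.20), while the falls of TUBA4A, TUBB2A, TUBB2B and TUBB3 were called under every normalization tried. TUBB was also not called with normexp background correction (0.19, limma adjusted p = 0.081). Under quantile normalization TUBB4B (0.26, adjusted p = 0.054) and the fall of TUBA1C (-0.15, adjusted p = 0.065) were not called. TUBB6 was also not called without the filter on dim probes (adjusted p = 0.068). The same held for TUBB6 without DMSO 72 h replicate 1 or 2 or 1 µM replicate 3 or 4 (adjusted p between 0.063 and 0.074), and for TUBB4B without 1 µM 72 h replicate 3 (adjusted p = 0.067).

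Differences between isotypes were tested directly by expressing each gene relative to TUBA1B, or to TUBB, on the same array and comparing 1 µM with DMSO at 72 h. This removes any factor that scales a whole array. Slide or session effects that differ between probes remain, because all 1 µM arrays were on the third slide. Relative to TUBA1B, 7 of the other 9 genes differed, beside 61.6% of all genes. TUBB2B lay at -1.26 (SE 0.13) and TUBA4A at -0.88 (SE 0.12), TUBB3 at -0.32 and TUBB2A at -0.28, whereas TUBB4B, TUBB and TUBB6 lay at 0.40, 0.36 and 0.34. TUBA1A and TUBA1C were not distinguished from TUBA1B, with 95% intervals of -0.07 to 0.28 and -0.28 to 0.01. Relative to TUBB, again 7 of 9 differed, beside 61.3% of all genes, and all 7 were lower, from -0.25 for TUBA1A to -1.61 for TUBB2B. TUBB4B and TUBB6 were the exceptions, at 0.05 (95% interval -0.16 to 0.25) and -0.02 (-0.17 to 0.14). TUBA1C did not differ from TUBA1B in this test but was 0.49 below TUBB (SE 0.08). Both results are for its brighter probe only. Its other probe went the opposite way against DMSO, with a change of 0.31, so the place of TUBA1C among the isotypes is not settled.

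TUBB2A and TUBB2B are neighbouring genes of closely related sequence on chromosome 6, with no other protein-coding gene between them in the RefSeq table. The difference of TUBB2B minus TUBB2A on the same array, examined after the values were seen, had a mean of -5.85 ± 0.10 in DMSO at 72 h and -6.82 ± 0.13 at 1 µM (SD, n = 4). The 1 µM arrays all lay below the DMSO arrays, with a shift of -0.97, which is given without a test because the pair was picked for it. At 24 h the shift was -0.41 with overlapping groups, and at the IC50 it was 0.12 at 24 h and -0.09 at 72 h, both with overlap. TUBA1B, TUBA1A and TUBA1C also follow each other on chromosome 12, and there the changes at 72 h differed less.

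All 10 genes had a promoter in the RefSeq table, and the sequence is printed for 4 of them, the adjacent pair TUBB2A and TUBB2B and TUBA4A and TUBB4B, which lay on opposite sides of DMSO at 1 µM for 72 h. They are the 250 bases before the RefSeq start on the gene's own strand (GRCh38.p14), and capitals mark matches on either strand to 3 short promoter elements, the CCAAT box, the GC box (letters GGGCGG) and the TATA box (letters TATAAA).
TUBB2A (chr6:3157545-3157794, minus strand): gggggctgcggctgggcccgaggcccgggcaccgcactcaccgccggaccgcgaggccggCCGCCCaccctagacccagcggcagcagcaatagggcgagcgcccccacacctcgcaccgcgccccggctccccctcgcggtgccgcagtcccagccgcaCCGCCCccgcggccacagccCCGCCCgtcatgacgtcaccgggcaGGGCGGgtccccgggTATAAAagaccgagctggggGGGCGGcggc
TUBB2B (chr6:3227654-3227903, minus strand): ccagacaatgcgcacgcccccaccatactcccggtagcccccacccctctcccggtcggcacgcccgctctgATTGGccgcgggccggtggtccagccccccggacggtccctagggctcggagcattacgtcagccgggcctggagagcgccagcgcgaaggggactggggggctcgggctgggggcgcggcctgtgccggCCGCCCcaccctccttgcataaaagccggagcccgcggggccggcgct
TUBA4A (chr2:219253919-219254168, minus strand): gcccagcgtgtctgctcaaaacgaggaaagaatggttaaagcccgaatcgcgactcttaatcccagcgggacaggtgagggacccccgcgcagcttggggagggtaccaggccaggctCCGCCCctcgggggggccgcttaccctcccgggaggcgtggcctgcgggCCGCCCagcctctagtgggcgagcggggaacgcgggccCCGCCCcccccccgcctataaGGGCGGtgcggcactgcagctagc
TUBB4B (chr9:137241037-137241286, plus strand): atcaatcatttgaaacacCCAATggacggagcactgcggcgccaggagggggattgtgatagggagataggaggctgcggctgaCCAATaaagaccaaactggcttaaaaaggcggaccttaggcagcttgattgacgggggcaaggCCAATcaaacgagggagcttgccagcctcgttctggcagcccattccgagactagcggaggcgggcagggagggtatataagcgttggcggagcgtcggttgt
In the adjacent pair, TUBB2A had 5 GC boxes and the only match to the letters TATAAA among the 10 genes. Other spellings of the TATA box were not searched. TUBB2B had 1 GC box and 1 CCAAT box. TUBA4A had 4 GC boxes and no CCAAT box, and TUBB4B had 3 CCAAT boxes and no GC box. TUBB, called higher at 72 h, had a start site with 5 GC boxes and another with 1 GC box and 1 CCAAT box. TUBB6, also called higher, had a start site with 6 GC boxes and 1 CCAAT box and another with no match to the 3 elements. Whether these matches bear on the changes was not tested. Over the 15 promoters listed for the 10 genes, some of which overlap, the CCAAT box was found in 9, the GC box in 9 and the TATA box in 1, beside 32.0%, 42.6% and 10.7% of 35116 RefSeq promoters of this length. A match describes letters only.

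Of the 10 genes, 4 had more than 1 probe. The 3 probes of TUBA4A gave -0.98, -0.97 and -0.85 at 1 µM for 72 h, and the 3 of TUBB gave 0.25, 0.33 and 0.32, all past the threshold. The dimmer probe of TUBB2A gave -0.24 (limma adjusted p = 0.055) where the brighter gave -0.38. TUBA1C was different, because its probes moved in opposite directions. The brighter probe, A_24_P188071, read 9.41, 9.37, 9.47 and 9.50 in DMSO and 9.32, 9.12, 9.20 and 9.16 at 1 µM, a change of -0.24 (limma adjusted p = 0.011). The dimmer one, A_24_P58529, read 7.36, 7.44, 7.30 and 7.24 and then 7.55, 7.63, 7.83 and 7.59, a change of 0.31 (limma adjusted p = 0.0011). Neither pair of groups overlapped. The difference between the probes shifted by 0.55, so the direction of TUBA1C at 72 h is not settled, and the mean of its probes changed by 0.04. Probe sequences were not used here, and whether a probe also binds a related tubulin mRNA was not tested.

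**Figure D3:**
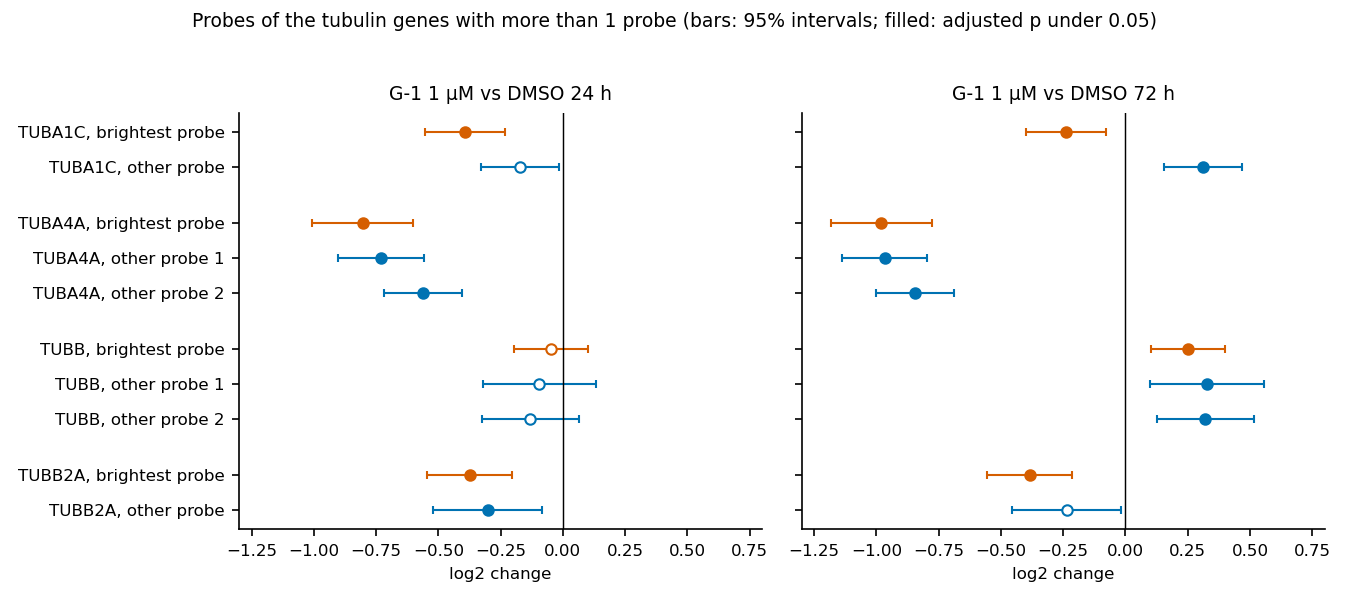
Log2 change at 1 µM against DMSO, x axis, for each probe of the 4 tubulin genes with more than 1 probe, at 24 h and 72 h. Bars are 95% intervals and filled points have an adjusted p under 0.05. The probes of TUBA4A and of TUBB agree in sign, and the 2 of TUBA1C lie on opposite sides of 0 at 72 h.

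The doses were also compared with each other. These contrasts share the treated arrays with the comparisons above and are not independent of them. At 24 h, TUBA4A and TUBB2B were lower at 1 µM than at the IC50 (-0.32 and -0.58), and TUBB and TUBB4B were higher (0.30 and 0.49), with 26.5% of all genes called, 8.32% lower and 18.2% higher. TUBB4B had levels of 4.92, 4.65, 4.79 and 4.56 at the IC50, all below the 1 µM arrays. TUBA1A, TUBA1B and TUBB2A, which lay below DMSO at both doses, differed between the doses by 0.07, 0.05 and -0.05, with 95% intervals of -0.07 to 0.22, -0.10 to 0.20 and -0.22 to 0.12. At 72 h, TUBA4A, TUBB2B and TUBB3 were lower at 1 µM (-0.80, -1.05 and -0.67) and TUBB, TUBB4B and TUBB6 higher (0.34, 0.34 and 0.28), with 65.1% of all genes called, 29.3% lower and 35.9% higher. TUBA1A, TUBA1B, TUBA1C and TUBB2A were not called between the doses at 72 h by their brightest probes, with differences between -0.17 and 0.07. The dimmer TUBA1C probe was 0.34 higher at 1 µM in that contrast (limma adjusted p = 5.74e-04). The higher calls of TUBB and TUBB4B at both durations and of TUBB6 at 72 h were lost with the 50th percentile as reference, which moved the median of all genes by -0.16 in both dose contrasts, and those of TUBB also with normexp background correction. The 24 h call of TUBA4A was lost without IC50 24 h replicate 3 (change -0.27, adjusted p = 0.061).

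Duration was compared within each treatment. In DMSO no tubulin gene was called between 72 h and 24 h by limma, where 3.34% of all genes were, and 1 had an unadjusted p under 0.05, beside 19.3% of all genes. That gene was TUBB2B, which was 0.31 higher at 72 h. Within the 1 µM arrays, all on 1 slide, 5 genes were called higher at 72 h than at 24 h and none lower, where 43.2% of all genes were called, 18.9% higher and 24.3% lower. TUBB rose by 0.42 (SE 0.07, limma adjusted p = 9.51e-05), from 7.09, 7.01, 6.83 and 6.83 to the 72 h values given above, without overlap. TUBB6 rose by 0.34, TUBB4B by 0.28, TUBA1A by 0.25 and TUBA1C by 0.23. TUBA1A moved from 7.46, 7.46, 7.49 and 7.31 at 24 h to 7.54, 7.64, 7.84 and 7.68 at 72 h. TUBA4A and TUBB2B had changes of -0.12 and -0.26 and were not called. The call of TUBA1C was lost without 1 µM 24 h replicate 3 or 72 h replicate 1, and that of TUBB4B without 1 µM 24 h replicate 3 or 4 or 72 h replicate 2, 3 or 4 (adjusted p between 0.065 and 0.17). Only 3 calls remained without 1 µM 24 h replicate 3. With the 50th percentile as reference TUBA1A, TUBA1C and TUBB4B were not called (limma adjusted p between 0.070 and 0.11). Without the filter on dim probes TUBA1C and TUBB4B were not called (adjusted p = 0.10 and 0.15).

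The interaction of 1 µM with duration asks whether the change against DMSO differed between 72 h and 24 h, and an offset of the third slide cancels in it. An offset between the other slides does not cancel fully, because DMSO had 3 arrays on slide 1 and 1 on slide 2 at 24 h and 2 on each at 72 h. The interaction was called for 3 genes, where 34.1% of all genes were called, 16.4% upward and 17.7% downward. The effect on TUBB was 0.30 higher at 72 h (SE 0.10, limma adjusted p = 0.030) and that on TUBA1A 0.29 higher (SE 0.10, adjusted p = 0.027). The effect on TUBB2B was 0.58 lower (SE 0.16, adjusted p = 0.011). With the slide as a block the values for TUBB, TUBA1A and TUBB2B were 0.31, 0.30 and -0.53, and all 3 stayed past the threshold (adjusted p = 0.020, 0.024 and 0.0094). For TUBA4A, TUBB2A and TUBB3 the interaction was -0.18, -0.01 and 0.04, with 95% intervals of -0.46 to 0.11, -0.25 to 0.23 and -0.21 to 0.30. The call of TUBA1A was lost without DMSO 24 h replicate 1, DMSO 72 h replicate 4, 1 µM 24 h replicate 4 or 1 µM 72 h replicate 3, and that of TUBB without replicate 2 of either DMSO group or replicate 3 or 4 of either 1 µM group (adjusted p between 0.050 and 0.069). With the 50th percentile as reference the values stayed at 0.29, 0.30 and -0.58 but none was called. The dimmer TUBA1C probe had an interaction of 0.49 (adjusted p = 0.0016) and the brighter one 0.16 (adjusted p = 0.30).

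**Figure D4:**
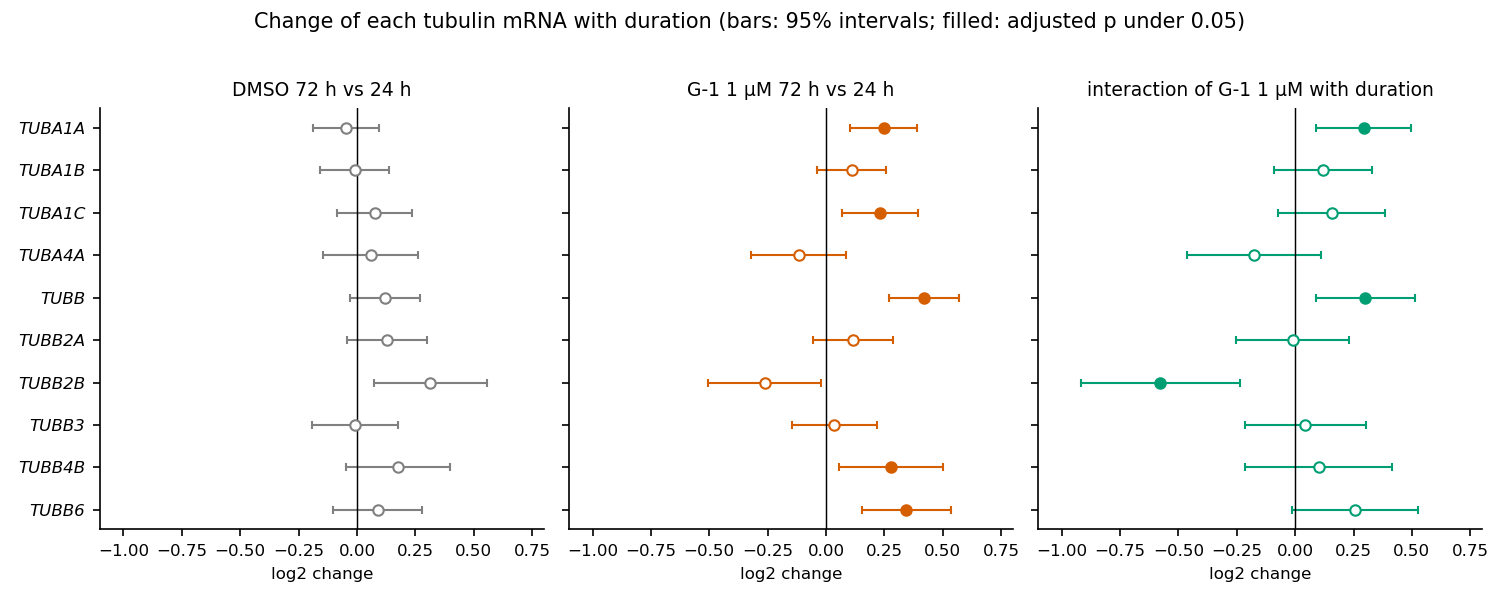
Log2 change of each tubulin gene between 72 h and 24 h in DMSO and at 1 µM, and the difference between the 2 (the interaction), x axis. Bars are 95% intervals and filled points have an adjusted p under 0.05. In DMSO no gene is called, at 1 µM 5 genes are higher at 72 h, and the interaction is negative for TUBB2B and positive for TUBA1A and TUBB.

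The order of the 6 group means differed between isotypes. The lowest group was IC50 at 24 h for TUBA1A, TUBA1B, TUBB, TUBB4B and TUBB6, 1 µM at 24 h for TUBA1C, TUBB2A and TUBB3, and 1 µM at 72 h for TUBA4A and TUBB2B. The highest was 1 µM at 72 h for TUBB, TUBB4B and TUBB6, IC50 at 72 h for TUBB3, and a DMSO group for the other 6. From lowest to highest the means spanned 1.36 for TUBB2B and 0.98 for TUBA4A, and 0.27 for TUBA1B at the other extreme. For TUBA1B, TUBA1C and TUBB3 all 5 neighbouring groups in the order overlapped, and for TUBA4A 2 of 5 did.

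Not all of the other alpha- and beta-tubulins could be followed. TUBA3E had no probe, and TUBB1 and TUBAL3 were above background on no array. Of the 5 that were tested, none was called at the IC50, 1 was lower at 1 µM for 24 h (10.5% of all genes were), and 4 were lower and 1 higher at 72 h (31.0% and 35.2%). TUBB4A, a brain isotype and 1 of the 4, was above background on all 4 DMSO arrays at 72 h but on 1 of 4 at 1 µM, so its difference of -1.14 is mostly against background. TUBA3D fell by 0.79, TUBB8 by 0.41 and TUBA3C by 0.40, and TUBA8 rose by 0.36. TUBB8, an isotype of the oocyte, had a change of -0.39 at 24 h at each dose, called at 1 µM (limma adjusted p = 0.0032) and not at the IC50 (adjusted p = 0.11). These values are for its brightest probe only, and whether that probe also binds a related tubulin mRNA was not tested. Gamma-, delta- and epsilon-tubulin went the other way. None of the 4 genes was called at the IC50, TUBD1 was higher at 1 µM for 24 h (0.55), and all 4 were higher at 72 h, beside 35.2% of all genes, TUBD1 by 0.58, TUBE1 by 0.45, TUBG2 by 0.27 and TUBG1 by 0.22.

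The genes of the autoregulation loop were described as well. TTC5, the factor that recognises nascent tubulin, was lower at 1 µM, by 0.39 at 24 h (limma adjusted p = 0.0040) and 0.28 at 72 h (adjusted p = 0.011), and at the IC50 its changes of -0.16 and -0.21 were not called. SCAPER, the adaptor, was not called in these 4 comparisons, with changes of 0.15 and 0.20 at the IC50 and 0.19 and -0.18 at 1 µM. Of 13 genes in this list, which adds the CCR4-NOT subunits, none was called at the IC50 at either duration, 4 were higher and 2 lower at 1 µM for 24 h, and 5 were higher and 3 lower at 72 h. The 8 called at 72 h are near the share over all genes, 66.1%, and the 6 at 24 h compare with 30.6%. The scaffold subunit CNOT1 rose by 1.06 and CNOT9 by 0.91 at 72 h, and CNOT11 by 0.51, whereas the deadenylase subunit CNOT6L fell by 0.89. The median of the list at 72 h was 0.07, and that of all genes 0.03.

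Tubulin chains are folded by prefoldin and the chaperonin CCT before cofactors assemble the dimer. Of these 14 chaperone genes none was called at the IC50, 8 were higher at 1 µM for 24 h, and 13 were higher and 1 lower at 72 h, with a median of 0.55. Over all genes 20.0% were higher at 24 h, and 35.2% were higher and 31.0% lower at 72 h. VBP1 and PFDN2, subunits of prefoldin, rose by 1.04 and 0.95 at 72 h, and the CCT subunits CCT6A and CCT8 by 0.93 and 0.73. Of the 7 folding cofactors, 1 was higher at 24 h, and 3 were higher and 1 lower at 72 h (TBCE 0.47, TBCB 0.41, TBCC 0.15, TBCEL -0.35). Of 8 measured subunits of the gamma-tubulin ring complex, 4 were higher and 2 lower at 72 h, from 0.61 for MZT1 to -0.69 for TUBGCP6. The 4 of 7 cofactors and 6 of 8 ring complex subunits called at 72 h stand beside 66.1% of all genes.

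Enzymes that modify tubulin tails came next. Of 17 tested, 5 were higher and 1 lower at 1 µM for 24 h, and 5 were higher and 10 lower at 72 h. The 6 called at 24 h are near the 30.6% of all genes, and at 72 h 35.2% of all genes were higher and 31.0% lower. The glutamylase TTLL1 fell by 1.33 and TTLL11 rose by 0.64. The deglutamylase AGBL2 and the detyrosinase VASH2 were not well above background on any 1 µM array at 72 h. They were therefore set to the lowest signal that counted as above background on each array, or the probe's own where higher. Against that, they were 1.80-fold and 1.32-fold lower than in DMSO. This is no strict limit, because an undetected probe can exceed that signal, as AGBL2 did on replicate 1 (-2.41 against -2.69). The limma adjusted p-values, 3.39e-04 and 0.0022, are for the values as measured. Of 23 microtubule-associated and destabilizing proteins, 7 were higher and 7 lower at 1 µM for 72 h, near the shares over all genes. At the IC50 none was called at 24 h and 1 was called lower at 72 h, beside 0.906% of all genes in either direction. The largest fall of the list there was that of DCLK1, at -0.84. The next values are for 1 µM at 72 h. MAPT, which encodes tau, fell by 1.90 and DCLK1 by 1.44, and TPX2, a spindle assembly factor, rose by 1.06 and FIGNL1 by 0.92. Genes of mitosis rose with 1 µM, 13 of 18 at 24 h and 15 at 72 h, with medians of 0.66 and 0.79 and none called lower, beside 20.0% and 35.2% of all genes called higher. AURKA rose by 1.60, CDC20 by 1.37, BORA by 1.30 and CCNA2 by 1.28 at 72 h. At the IC50 none of the 18 was called, with medians of -0.06 at 24 h and 0.10 at 72 h. The part of this mitotic shift in the tubulin changes at 1 µM was not tested.

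Cell type markers moved with 1 µM as well. Of the 8 glioma and astroglial markers, 1 was higher and 6 were lower at 72 h, with a median of -0.36, where 66.1% of all genes were called and 31.0% were lower. The neuronal markers RBFOX3, SYT1 and SNAP25 were measured on all 24 arrays and DCX on none, and at 72 h 1 of the 3 was higher and 2 were lower, with a median of -0.90. At 1 µM for 24 h, 2 of the 3 were lower, where 10.5% of all genes were. All 3 oligodendrocyte markers were lower at 72 h, with a median of -1.02. The immune markers PTPRC, CD3E and AIF1 were above background on no array, whereas CD14 was on all 24 and rose at 1 µM, by 0.58 at 24 h and 1.23 at 72 h. Of the 3 endothelial markers PECAM1 was above background on no array, VWF fell by 1.70 at 72 h, and CDH5, above background on 16 of 24 arrays, was not called (-0.77). At the IC50 none of these markers was called at either duration. Their part in the tubulin changes was not tested.

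**Figure D5:**
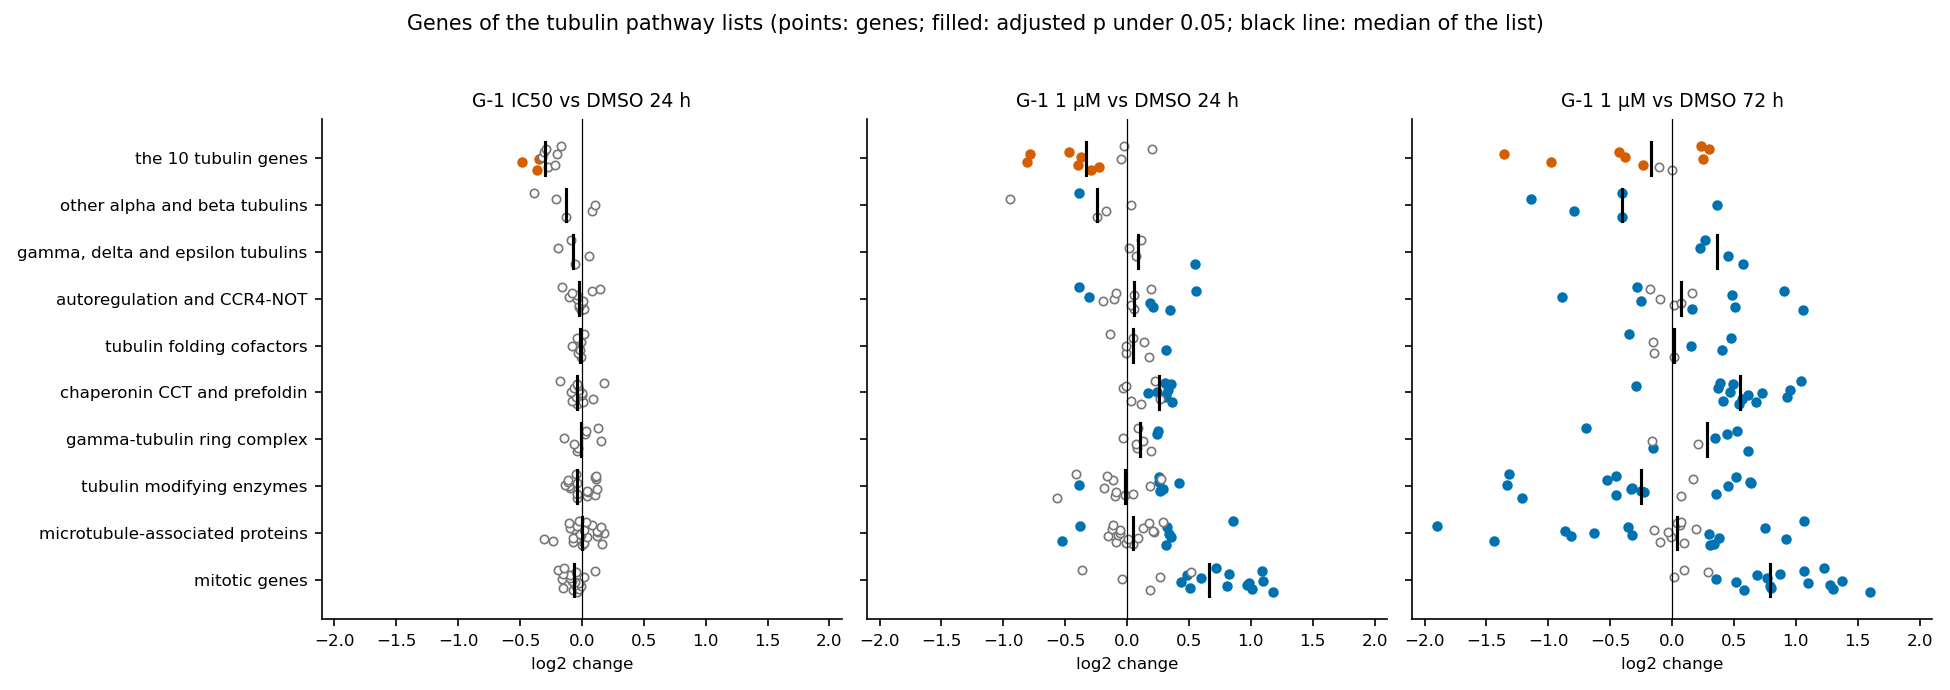
Log2 change of each gene of the tubulin pathway lists, x axis, by list, y axis, for 3 comparisons with DMSO (the IC50 at 24 h, then 1 µM at either duration). Points are genes, filled where the adjusted p is under 0.05 (orange for the 10 tubulin genes, blue for the other lists), and black lines are the medians. At the IC50 for 24 h only the tubulin genes hold filled points, and at 1 µM and 72 h the chaperone and mitotic lists have medians of 0.55 and 0.79.

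Across the 24 arrays, the 45 pairs of tubulin genes had Pearson correlations between -0.440 and 0.898, with a median of 0.522. Within groups, after each group's mean was removed, they lay between -0.576 and 0.771, with a median of 0.164. The tested gene outside the tubulin lists whose levels were most like those of TUBB2B was RNF141 (r = 0.936 over 24 arrays and 14216 genes compared), and that of TUBA4A was SEMA6C (r = 0.919). For TUBB6, TUBB4B, TUBB2A and TUBB they were TMEM106A (0.885), MYBL2 (0.859), FOXRED2 (0.856) and CREG2 (0.848). For TUBB3, TUBA1C, TUBA1B and TUBA1A they were RDH10 (0.837), ASTN2 (0.795), H3C4 (0.768) and CSMD2 (0.756). The arrays share treatment, slide and scaling, so these values are descriptions with no test.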

How the data were processed

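Total RNA labelled with Cy3 had been hybridized to single-colour Agilent arrays. Per the file headers, the deposited scanner files hold the background-subtracted, processed spot intensity from Feature Extraction (12.1.1.1 in the headers, 10.7.3.1 in the submitters' processing notes) with flags for spots above background, saturated spots and outliers. The authors also deposited a log2 table, shifted to the 75th percentile and centred on each probe's median, which was used as an alternative. Groups were taken from the sample titles, because the duration label of 2 groups contradicted them.

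Intensities were converted to log2 and the array's 75th percentile was subtracted. Spots of a probe were averaged, outlier spots and control spots left out, and a probe was tested if some group had it above background on each of its 4 arrays (22970 probes). The 6 groups were fitted with limma 3.58.1 (R 4.3.3) over all 24 arrays, with Benjamini-Hochberg adjustment. Python 3.11.15, numpy 2.4.6 and pandas 2.3.3 were used elsewhere, and the code was tested on simulated data. Genes were named from RefSeq accessions, the brightest probe standing for a gene. In the other lists, the 4 genes with the largest change at 1 µM for 72 h were named where called, and TTC5, SCAPER and the other tubulins always. The members and lists were chosen with earlier results of these data known. Precision is limited by 4 arrays a group.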

Additional observations from a re-analysis of the deposited data

Results flagged for a closer look

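In 60 sets of 4 arrays, each a tubulin gene in a group, 2 held an array far from the other 3, and chance gives about 1 in 20. For TUBB at the IC50 for 72 h, replicate 3 (7.13) lay above the others (6.98 to 7.00), with a gap of 0.845 of the whole range. For TUBB4B in DMSO at 24 h, replicate 4 (4.95) lay below the others (5.04 to 5.05), with a gap of 0.863 of the range. The effect of 1 µM differed between 72 h and 24 h for TUBA1A (0.29 on the log2 scale), TUBB (0.30) and TUBB2B (-0.58), by the interaction term in limma.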

How the results depend on the processing

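Under quantile normalization 6 tubulin genes were called in the 1 µM interaction (3 otherwise). With the 50th percentile as reference the IC50 at 24 h had 0 (3 otherwise), 1 µM at 72 h had 5 (8), 1 µM at 72 h against 24 h had 2 (5) and the 1 µM interaction 0. With normexp the IC50 at 24 h had 1, DMSO at 72 h against 24 h had 1 (0) and the 1 µM interaction 5. Without a filter on dim probes the IC50 at 24 h had 0, 1 µM at 72 h against 24 h had 3 and the 1 µM interaction 1. With the arrays of the comparison only, the IC50 at 24 h had 0. With a 2-fold threshold added there were 0 for the IC50 and for 1 µM at 24 h, for the doses at 24 h, for 1 µM at 72 h against 24 h and for the 1 µM interaction, 1 for 1 µM at 72 h and for the doses at 72 h, and 1 and 2 relative to TUBA1B and TUBB. The methods' t-test with its fold threshold gave 0 for the IC50 at 24 h, 0 and 1 for the shorter and longer 1 µM exposure, 0 and 1 for the doses at 24 h and 72 h, and 0 for 1 µM at 72 h against 24 h, before and after adjustment.

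Leaving out 1 array gave 0 to 3 calls for the IC50 at 24 h, 6 to 7 for 1 µM at 24 h, 6 to 8 for it at 72 h, 3 to 4 for the doses at 24 h, 3 to 6 for 1 µM at 72 h against 24 h, 1 to 3 for the 1 µM interaction and 6 to 7 relative to TUBA1B or TUBB. It left the doses at 72 h at 6, and the IC50 at 72 h, DMSO at 72 h against 24 h and the IC50 interaction at 0.

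Among changes that were not called, the sign turned at the IC50 for 72 h under quantile normalization (TUBA1B 0.0592, TUBB6 0.0373), with the 50th percentile (TUBA1A 0.0137, TUBA1B 0.0141, TUBB 0.00027, TUBB4B 0.0395, TUBB6 0.0394) and with normexp (TUBA1B 0.0695, TUBB6 0.0425). At 1 µM for 72 h it turned for TUBA1A under quantile normalization (-0.0176) and the 50th percentile (-0.0751) and for TUBA1B with normexp (0.0724). Over the fits without single arrays, changes that crossed 0 ran from -0.083 to 0.0529 for TUBB6 at 1 µM for 24 h, from -0.0524 to 0.047 for TUBA1A at 1 µM for 72 h and from -0.143 to 0.0261 for TUBB4B at the IC50 for 72 h. The called change of TUBA1C at 1 µM for 72 h became 0.037 with the mean of its probes. The cause was not tested for any of these.

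Correlations of same-numbered replicates lay between -0.32 and 0.53, and 33 of 60 were above 0.1. At 24 h 11 of 12 were, including all 4 pairs of 1 µM with DMSO and with IC50, whereas 1 pair of IC50 with DMSO was at -0.11, and at 72 h 6 of 12 were. With the replicate number as a block, all 58 changes of tubulin genes kept their call. A replicate block within each duration, chosen after seeing the data, left 1 µM against DMSO at 24 h at 7 calls and moved 1 µM against IC50 at 24 h from 4 to 5. It gave 5 for the IC50 at 24 h, adding TUBA1B (adjusted p = 0.039) and TUBB3 (0.044), and 1 for the IC50 interaction, TUBB3 (0.033). Changes between durations cannot be fitted with it. The deposited log2 table changed none of the 58.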
